A study of Rattus norvegicus with 6 samples.

Results

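The amino acid carriers described here are 36 genes of the SLC1, SLC3, SLC6, SLC7, SLC16, SLC36, SLC38 and SLC43 families, listed by family and known function. They move amino acids across the plasma membrane or out of the lysosome, and a few relatives move taurine, creatine, betaine or nucleobases. Of the 36 genes, 35 had a probe that a transcript accession ties to their symbol, Slc6a20 among them under its present symbol Slc6a20a, and 28 were measured. In all 27506 genes were tested, 11572 of them with a symbol and the rest under an accession only. Measured means that the probe standing for the gene was well above background on 3 or more of the 6 arrays. Slc7a1 had no named probe. Slc36a2, Slc38a4, Slc6a15, Slc7a2, Slc7a3 and Slc7a10 were not well above background on any array, and Slc1a4 was so on 1 water and 1 bromate array. The cationic carriers Slc7a1, Slc7a2 and Slc7a3 are therefore not described further.

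RNA came from the renal cortex of male Sprague-Dawley (Crl:CD(SD)) rats bought at 5 weeks of age. The water group was 3 rats that received water over 4 weeks, and the bromate group was 3 rats that received potassium bromate, an oxidising compound toxic to the kidney, at 100 mg/kg/day for as long. Each rat gave 1 single-colour array. Whole cortex was sampled, so fewer cells of a type and less RNA per cell cannot be told apart in any value given here. Levels are log2 signals after subtraction of the log2 of their array's 75th percentile. Differences are bromate minus water on that scale, given ± the standard error with n = 3 per group, and levels of different probes are not set against each other.

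The kidney filters free amino acids and takes nearly all of them back in the proximal tubule. Sodium-coupled carriers and exchangers of the brush border bring them into the cell. On the basolateral side, exchangers that swap one amino acid for another work beside uniporters, which let amino acids leave without exchange and so give the net exit. Other carriers feed the cell itself, empty the lysosome or hold osmolytes such as taurine and betaine.

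Under bromate the glycine carrier gene Slc6a9 and the exchanger gene Slc7a6 rose, while the proline carrier gene Slc6a20a and the basolateral uniporter genes Slc43a2 and Slc16a10 fell. The uniporter gene Slc43a1 was also called lower, but it was well above background on the water arrays alone and was tested only through the group where it was high. Neither Slc6a19, the main neutral amino acid carrier gene of the brush border, nor the cystine carrier genes Slc3a1 and Slc7a9 passed the test. By limma, with p-values adjusted after Benjamini-Hochberg across every gene tested and a threshold of 0.05, 2 of the 28 measured genes rose (7.14%, beside 6.87% of all genes tested) and 4, Slc43a1 included, were called lower (14.3%, beside 7.59%). Together they make 21.4% of the measured carriers, beside 14.5% of all genes. Water and bromate values did not overlap in 14 of the 28, beside 41% of all genes tested. Among the genes with a symbol, as all carriers are, the shares were 8.6% higher, 8.33% lower and 44.2% without overlap. Of the 26 carriers well above background on all 6 arrays, 2 rose and 3 fell. With that filter applied to every gene, Slc43a1 was not tested and 3 carriers rose and 3 fell, the nucleobase carrier gene Slc43a3 being the one gained (adjusted p = 0.0429). Over all genes 1978 rose and 2193 fell under that filter, with fewer genes tested. With single rats omitted, the number of carriers called lower was 3 on omission of the first rat of either group, 1 on omission of water replicate 2, water replicate 3 or bromate replicate 2, and 0 by limma on omission of bromate replicate 3. The number that rose was 1 in each of these fits but that lacking water replicate 3, where it was 2. Calls over all genes were fewer too, at 530 to 1835 lower and 594 to 1495 higher, beside 2088 and 1891 with all rats. The carrier counts include carriers not called with all rats. Slc7a8 was called lower without the first water rat and Slc6a13 without the first bromate rat. Without water replicate 3, Slc1a1 was the 1 called lower, and Slc43a3 rose beside Slc6a9. In that fit none of the 4 carriers called lower with all rats kept its call, nor did Slc7a6. No carrier that rose or fell changed sign in these fits. With so few genes these shares show nothing particular to the carriers. The median difference was -0.0017 over the 28 genes and -0.023 over all genes.

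**Figure D1:**
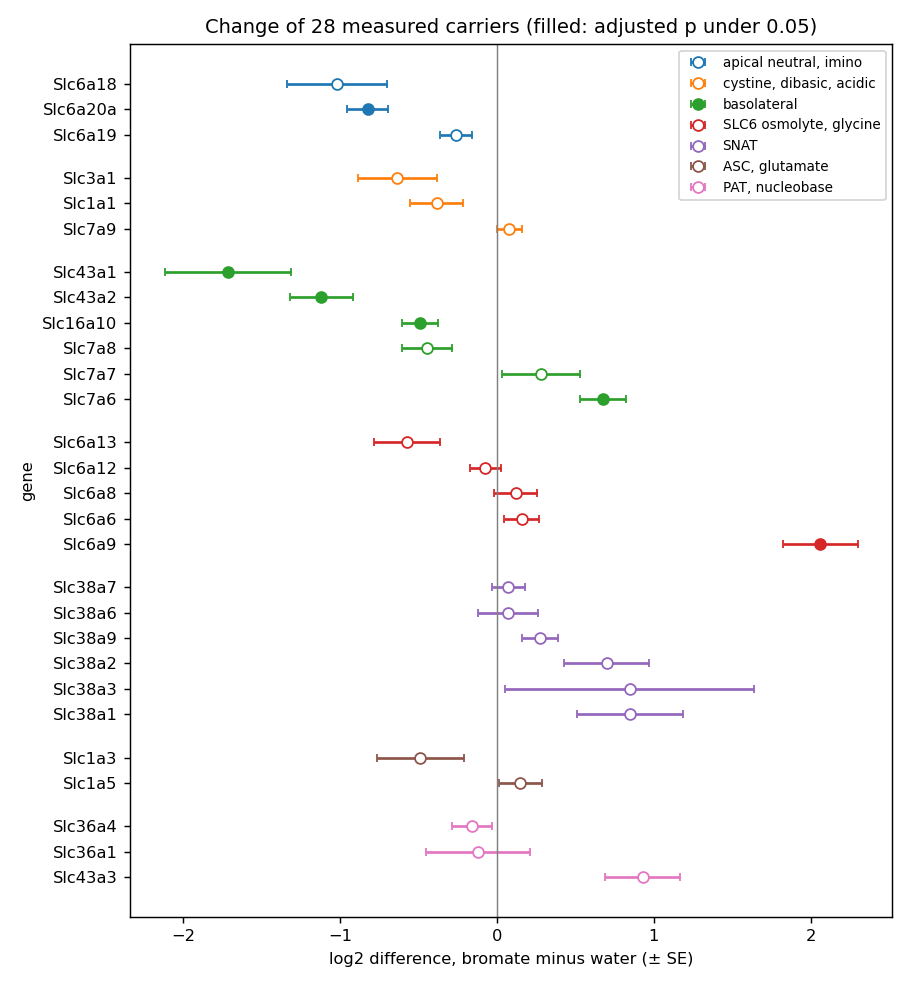
Log2 difference, bromate minus water, ± SE for the 28 measured carrier genes, in colours by class, with filled points for adjusted p under 0.05 by limma. Slc6a9 lies farthest to the right at 2.06 and Slc43a1, which was not well above background on any bromate array, farthest to the left at -1.72.

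The arrays had 35621 to 38801 of 61537 probes well above background, and none was saturated. Of 2 slides, 1 carried only water replicate 1, so a fit with slide as a block leaves that rat out of the comparison. The labelled tissue showed its markers, with 8 of 8 convoluted and 7 of 7 straight proximal tubule genes measured. The convoluted list averaged 6.45, 6.49 and 6.59 over the water rats and 6.20, 6.16 and 6.14 over the bromate rats in replicate order, and 3 of its genes fell, 0 rose and 5 did not pass. For the straight list the averages were 3.00, 1.45 and -0.02 for water against 0.33, -0.60 and 0.53 for bromate. Limma called 0 of its 7 genes. Its unadjusted p was below 0.05 for 2 of them, beside 9042 of all 27506 genes tested. Injured tubule genes averaged 0.54, 0.23 and -0.15 for water and 3.50, 4.24 and 4.48 for bromate over 5 genes, of which 3 rose. These were Havcr1, Spp1 and Clu, with differences of 8.11, 4.82 and 3.08, Havcr1 being well above background on 2 water arrays. Lcn2 was higher (3.71, limma adjusted p = 0.087) and Vcam1 lower (-0.40, adjusted p = 0.154), and neither passed. Markers of 3 further cell types of the tubule fell: intercalated cells in 4 of 4 genes (3.78, 3.75 and 3.99 for water, 2.61, 2.32 and 2.49 for bromate), thick ascending limb in 3 of 4 (4.03, 3.70 and 3.26, then 2.35, 2.08 and 2.22), and distal convoluted and connecting tubule in both measured of 4 listed (2.91, 3.65 and 4.06, then 1.29, 1.57 and 1.80). Of the 4 endothelial genes 1 fell. Limma called 0 principal cell, podocyte, fibroblast, macrophage, lymphocyte and dividing cell markers, where 2 principal cell, 1 podocyte and 1 macrophage gene had an unadjusted p below 0.05. What part these shifts have in the carrier values was not tested.

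Slc6a9 and Slc43a2 had the largest changes upward and downward among the carrier genes that were well above background on all 6 arrays, so their promoters are shown. The sequences are RefSeq's on build GRCr8, from 250 bases before to 50 bases after the annotated start, 5′ to 3′ on the strand of the gene, with the 50 bases from the start on in capitals. The window of Slc6a9 is chr5:136659826-136660125 (+ strand, 59.0% G and C), and that of Slc43a2 is chr10:60874588-60874887 (+ strand, 61.7% G and C).
Slc6a9: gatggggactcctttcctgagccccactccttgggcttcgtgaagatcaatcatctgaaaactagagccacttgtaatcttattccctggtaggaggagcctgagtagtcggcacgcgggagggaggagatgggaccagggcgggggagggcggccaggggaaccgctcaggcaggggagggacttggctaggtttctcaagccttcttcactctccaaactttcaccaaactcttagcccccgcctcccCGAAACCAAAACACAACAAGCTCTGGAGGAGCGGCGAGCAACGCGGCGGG
Slc43a2: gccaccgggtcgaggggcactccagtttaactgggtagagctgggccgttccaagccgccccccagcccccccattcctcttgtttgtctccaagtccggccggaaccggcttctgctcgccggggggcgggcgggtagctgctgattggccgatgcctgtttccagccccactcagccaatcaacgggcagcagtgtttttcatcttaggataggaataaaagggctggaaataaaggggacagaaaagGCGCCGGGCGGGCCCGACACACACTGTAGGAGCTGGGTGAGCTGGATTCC

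Windows of this length were on hand for 27 of the 36 genes and were searched on both strands for 4 short motifs. No window of the 6 genes that rose or fell held any of them, which says only that these letters are not there. The NRF2 element, spelled TGACNNNGC, was in 5 of 27 carrier windows (Slc7a7, Slc3a1, Slc6a6, Slc36a1 and Slc38a2) and in 12.1% of all 33469 promoters. The C/EBP-ATF element TGATGNAA was in 2 of 27 (Slc1a4 and Slc38a1), beside 3.98% of all. For the AP-1 element TGANTCA it was 3 of 27 (Slc3a1, Slc38a1 and Slc38a7), beside 7.33%, and for the HNF4A element CAAAGTCCA it was 1 of 27 (Slc3a1), beside 0.391%. Overlaps between motifs were not counted.

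On the brush border, the neutral and imino acid carriers were measured through Slc6a18, Slc6a19 and Slc6a20a, of which 1 fell, 0 rose and 2 did not pass. Slc6a20a encodes the sodium-coupled carrier of proline and other imino acids. Its level was 2.10, 1.77 and 1.92 in the water rats and 1.01, 1.29 and 1.03 in the bromate rats. The groups did not overlap, and the lowest water rat stood clearly above the highest bromate rat. The gene fell by 0.82 ± 0.13 on the log2 scale (1.77-fold lower, limma adjusted p = 0.0158), and its other probe fell by 1.00 ± 0.22 (adjusted p = 0.0354). Leaving out water replicate 3 (-0.83, adjusted p = 0.0554) or bromate replicate 3 (-0.78, adjusted p = 0.0549) ended the call.

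Slc6a18 encodes a brush border carrier of glycine and other small neutral amino acids. It read 5.19, 4.28 and 4.0 under water and 3.55, 3.24 and 3.62 under bromate. The groups did not overlap, but water replicate 1 lay well above the other water rats. The difference of -1.02 ± 0.32 did not pass (limma adjusted p = 0.0833) and was -0.67 without water replicate 1. Its other probes gave -1.03 ± 0.34 and -1.02 ± 0.34.

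Slc6a19 encodes the main neutral amino acid carrier of the brush border, whose loss causes Hartnup disorder. Its water values were 3.53, 3.53 and 3.73 and its bromate values 3.32, 3.24 and 3.46. The groups did not overlap but lay close together, with a difference of -0.26 ± 0.10 (limma adjusted p = 0.14). Slc6a18 and Slc6a19 are next to each other in RefSeq's gene order. Collectrin (Cltrn), the partner protein these carriers need at the brush border, read 7.41, 7.42 and 7.49 under water and 7.39, 6.96 and 7.19 under bromate, without overlap, and did not pass either (-0.26 ± 0.13, adjusted p = 0.21).

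Cystine, lysine and arginine enter through a pair of proteins, the heavy subunit encoded by Slc3a1 and the transporting subunit encoded by Slc7a9, whose loss causes cystinuria. Neither gene passed. Slc3a1 read 8.52, 7.83 and 7.58 under water and 7.41, 7.17 and 7.44 under bromate, without overlap and with water replicate 1 highest (-0.63 ± 0.25, limma adjusted p = 0.141). Without that rat the difference was -0.36, and the other probe gave -0.86 ± 0.30 (adjusted p = 0.106).

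Slc7a9 varied little within either group. It read 5.53, 5.57 and 5.70 under water and 5.70, 5.68 and 5.65 under bromate, and the groups overlapped (0.08 ± 0.08, adjusted p = 0.541). Slc1a1, the brush border glutamate and aspartate carrier gene, read 3.29, 3.20 and 2.71 under water and 2.70, 2.61 and 2.73 under bromate. Water replicate 3 lay within the bromate range, and the difference of -0.39 ± 0.17 (adjusted p = 0.171) became -0.57 and passed without that rat (adjusted p = 0.0474).

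Among the basolateral exchangers and uniporters 7 were listed and 6 measured, and of these 3 were called lower, 1 rose and 2 did not pass. The 3 include Slc43a1, listed here as a uniporter and tested only through the water group, where it was high. Of all genes tested 7.59% were lower and 6.87% higher, and counts over 6 genes show nothing particular to the class. Slc43a2, Slc16a10 and the dim Slc43a1, the 3 called lower, encode uniporters. Slc7a6, Slc7a7 and Slc7a8 encode exchangers. This division was made after the values were seen and is a description only.

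Slc43a2 encodes LAT4, a uniporter of branched-chain and other large neutral amino acids. Its water values were 3.00, 3.53 and 3.76 and its bromate values 2.25, 2.42 and 2.25. Every bromate rat lay below every water rat, and the bromate rats lay closer together. It fell by 1.12 ± 0.20 on the log2 scale (2.17-fold lower, limma adjusted p = 0.0223). Its other probes fell by 0.96 ± 0.18 and 0.78 ± 0.16 (adjusted p = 0.0247 and 0.0301). Omitting water replicate 2 or 3 or bromate replicate 1, 2 or 3 ended the call, at adjusted p of 0.0555 to 0.08. Without water replicate 1 the difference was -1.33 (adjusted p = 0.00965). Without the filter on dim probes the adjusted p was 0.0575.

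Slc16a10 encodes TAT1, a uniporter of aromatic amino acids. It read 0.18, 0.06 and 0.25 under water and -0.20, -0.52 and -0.28 under bromate, without overlap. The gene fell by 0.49 ± 0.11 (1.41-fold lower, limma adjusted p = 0.0419). The call ended whichever of the 6 rats was omitted (adjusted p 0.057 to 0.119), with normexp background correction (-0.35, adjusted p = 0.074) and without the filter on dim probes (adjusted p = 0.113).

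Slc43a1 encodes LAT3, the close relative of LAT4, known from podocytes among other cells. It was dim, at -3.96, -3.74 and -3.73 under water and -6.47, -4.93 and -5.18 under bromate. It was well above background on all 3 water arrays and on none of the bromate arrays, so it met the filter through the water group alone. With the bromate values raised to a floor, it was 2.02-fold lower. The floor was, per bromate array, the lowest signal of any probe well above background, or the probe's own where that was higher. It is not this probe's own limit of detection, so the value is no strict minimum. The fitted difference of -1.72 ± 0.40 (limma adjusted p = 0.0421) is no bound either, and with normexp it was only -0.39 (adjusted p = 0.0321). Omitting bromate replicate 1, the lowest, left -1.25 (adjusted p = 0.0141), while omitting any of the other 5 rats ended the call (adjusted p 0.0595 to 0.121), as did dropping the filter on dim probes (0.0943). Podocyte markers averaged 1.12, 1.41 and 1.46 for water and 1.22, 1.08 and 1.11 for bromate over 4 genes, with 0 calls by limma. The unadjusted p was below 0.05 for 1 of them, beside 9042 of all 27506 genes tested. What part podocytes have in the Slc43a1 value was not tested.

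Slc7a6 encodes y+LAT2, an exchanger of basic against neutral amino acids. It read -2.06, -1.64 and -1.82 under water and -1.32, -0.96 and -1.20 under bromate. Each bromate rat lay above every water rat, and the gene rose by 0.68 ± 0.15 (1.60-fold, limma adjusted p = 0.0368). The call was lost on omission of each of the 6 rats in turn (adjusted p 0.0569 to 0.104) and without the filter on dim probes (adjusted p = 0.0939).

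Its relative Slc7a7 encodes y+LAT1, the exchanger lost in lysinuric protein intolerance. Water values were 2.02, 2.61 and 2.94 and bromate values 2.97, 2.86 and 2.58, with overlap (0.28 ± 0.25, limma adjusted p = 0.477). The difference was 0.03 without water replicate 1, the lowest rat. Slc7a8 encodes LAT2, which exchanges neutral amino acids. It read 4.53, 4.79 and 5.13 under water and 4.37, 4.41 and 4.33 under bromate, with no overlap (-0.45 ± 0.16, adjusted p = 0.112). Without water replicate 1 it was -0.59 and passed (adjusted p = 0.0475).

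These exchangers need the heavy subunit encoded by Slc3a2. Slc3a2 read 4.32, 4.53 and 4.69 under water and 4.48, 4.40 and 4.35 under bromate, with overlap, and did not pass (-0.10 ± 0.12, adjusted p = 0.578).

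**Figure D2:**
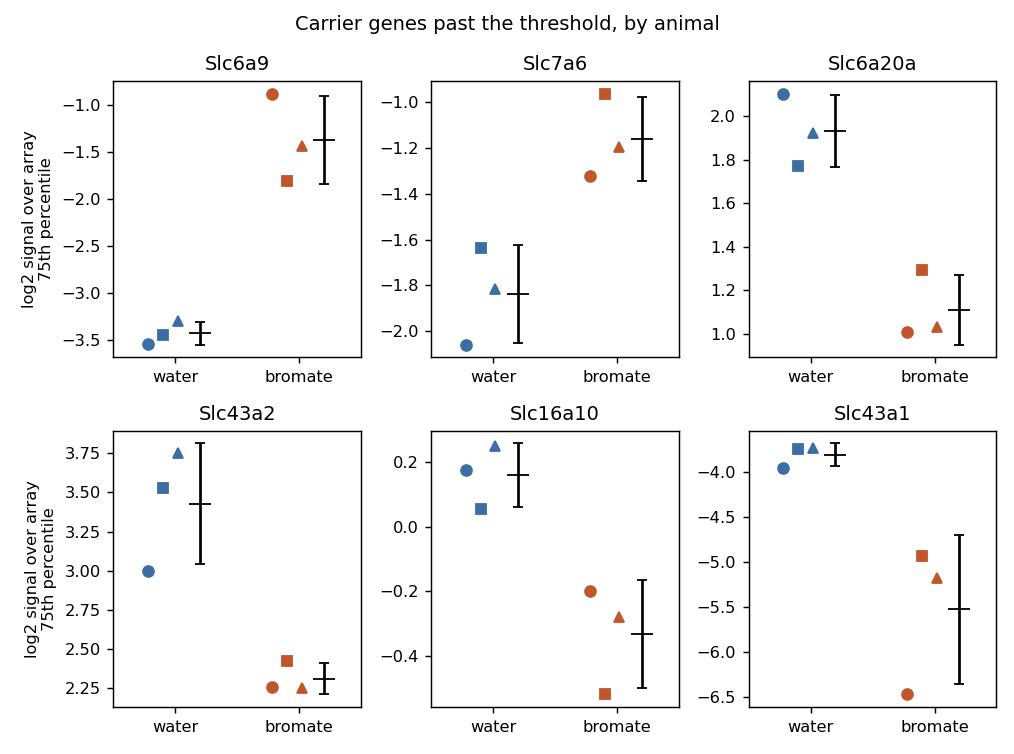
Log2 signal over the array's 75th percentile for the 6 carrier genes past the threshold, with 1 point per rat (circle, square and triangle for replicates 1, 2 and 3) and the group mean ± SD (n = 3). Axes differ between panels, and water and bromate rats do not overlap in any of them. The Slc43a1 bromate points are not well above background.

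Slc6a9, which encodes the glycine carrier GlyT1, had the lowest adjusted p of the 28 carriers. It read -3.54, -3.45 and -3.31 in the water rats and -0.88, -1.81 and -1.44 in the bromate rats. The water rats lay close together, and the lowest bromate rat was far above all of them. The gene rose 4.17-fold (2.06 ± 0.24, limma adjusted p = 0.00729). Its call held on omission of each rat in turn, with differences from 1.81 to 2.28 and adjusted p up to 0.0379. With normexp the difference was 1.47 (adjusted p = 0.00594). Of its other probes, 1 was well above background on no water array and on all 3 bromate arrays, so it was tested only through the group where it was high and adds no support. The other, dim on 1 water array, had 0.96 ± 0.34 and did not pass (adjusted p = 0.109).

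Of the other osmolyte and amine carriers of the SLC6 family 4 were measured, and limma called 0 of them. Slc6a13 alone, 1 gene, had an unadjusted p below 0.05, beside 9042 of all 27506 genes tested. Slc6a13 encodes GAT2, a carrier of GABA and taurine. It read 2.58, 2.35 and 2.51 under water and 2.34, 1.53 and 1.85 under bromate, where replicate 1 lay just under the water rats (-0.57 ± 0.21, adjusted p = 0.122). Without that rat it was -0.79 and passed (adjusted p = 0.0404). Its neighbour Slc6a12, the betaine carrier gene, read -2.52, -2.44 and -2.59 under water and -2.57, -2.48 and -2.73 under bromate, with overlap (-0.07 ± 0.10, adjusted p = 0.635).

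Slc6a8, the creatine carrier gene, read 6.74, 7.12 and 7.04 under water and 6.97, 7.05 and 7.24 under bromate (0.12 ± 0.14, adjusted p = 0.584). Slc6a6, the taurine carrier gene, read 0.52, 0.41 and 0.68 under water and 0.55, 0.80 and 0.74 under bromate (0.16 ± 0.11, adjusted p = 0.376). The groups overlapped in both genes.

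Sodium-coupled neutral carriers of the SLC38 family were measured for 6 of 7 genes, and limma called 0 of them. An unadjusted p below 0.05 was found for 2, Slc38a2 and Slc38a1, beside 9042 of all 27506 genes tested. Slc38a1 was well above background on 1 water and 3 bromate arrays, so it was tested only through the group where it was high. All 6 differences, that of Slc38a1 included, were above 0, beside 12926 of all 27506 genes tested. Signs of 6 genes show nothing particular to the class. The difference of Slc38a6 was below 0 when water replicate 1 (-0.12) or bromate replicate 1 (-0.01) was omitted. Slc38a2 encodes SNAT2, an uptake carrier known to rise when cells lack amino acids. It read 1.85, 1.40 and 1.41 under water and 2.75, 2.24 and 1.76 under bromate, where replicate 3 lay below the highest water rat (0.70 ± 0.27, limma adjusted p = 0.138). Its other probe gave 1.03 ± 0.24 and passed (adjusted p = 0.0396).

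Slc38a1, the SNAT1 gene next to Slc38a2, was dim. It read -4.77, -5.66 and -4.59 under water and -3.70, -4.45 and -4.33 under bromate, without overlap (0.85 ± 0.34, adjusted p = 0.147). It was well above background on 1 water and 3 bromate arrays, so the bromate group carried it through the filter.

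Slc38a3 encodes SNAT3, which moves glutamine across the basolateral membrane. Its water rats spread more than those of any other of the 28 measured members of the list, at 1.16, -0.56 and -2.16. The bromate values were 0.41, 0.10 and 0.48. The bromate rats lay inside the water range, and the difference of 0.84 ± 0.80 did not pass (adjusted p = 0.503). It was 0.02 without water replicate 3 and 1.69 without water replicate 1.

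Slc38a9, a lysosomal arginine sensor that acts on the growth regulator mTORC1, read -2.19, -2.52 and -2.30 under water and -1.97, -2.14 and -2.10 under bromate, without overlap (0.27 ± 0.11, adjusted p = 0.164). Slc38a7, a lysosomal glutamine carrier gene, and Slc38a6 overlapped between groups, with differences of 0.07 ± 0.10 and 0.07 ± 0.19.

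Slc43a3 belongs to the LAT3 and LAT4 family by sequence but encodes a carrier of purine nucleobases. It read -0.44, -0.58 and 0.30 under water and 0.65, 0.64 and 0.78 under bromate. The groups did not overlap, and the difference of 0.93 ± 0.24 lay just short of the threshold (limma adjusted p = 0.0529). Without water replicate 3, the highest water rat, it was 1.20 and passed (adjusted p = 0.014), as it did with normexp (0.83, adjusted p = 0.0324). In RefSeq's order 1 gene lies between Slc43a3 and Slc43a1, whose fitted differences had opposite signs.

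Slc1a5 encodes ASCT2, an exchanger that brings in glutamine. It read 1.37, 1.40 and 1.28 under water and 1.37, 1.35 and 1.77 under bromate, with bromate replicate 3 alone above the rest (0.15 ± 0.14, adjusted p = 0.491). Slc1a3, the glutamate carrier gene of glia, read -2.60, -2.34 and -2.10 under water and -3.38, -2.74 and -2.38 under bromate, with overlap (-0.49 ± 0.28, adjusted p = 0.272). The proton-coupled carrier genes Slc36a1 (-0.12 ± 0.33, adjusted p = 0.827) and Slc36a4 (-0.16 ± 0.13, adjusted p = 0.427) overlapped too. None of these 4 genes passed the test.

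**Figure D3:**
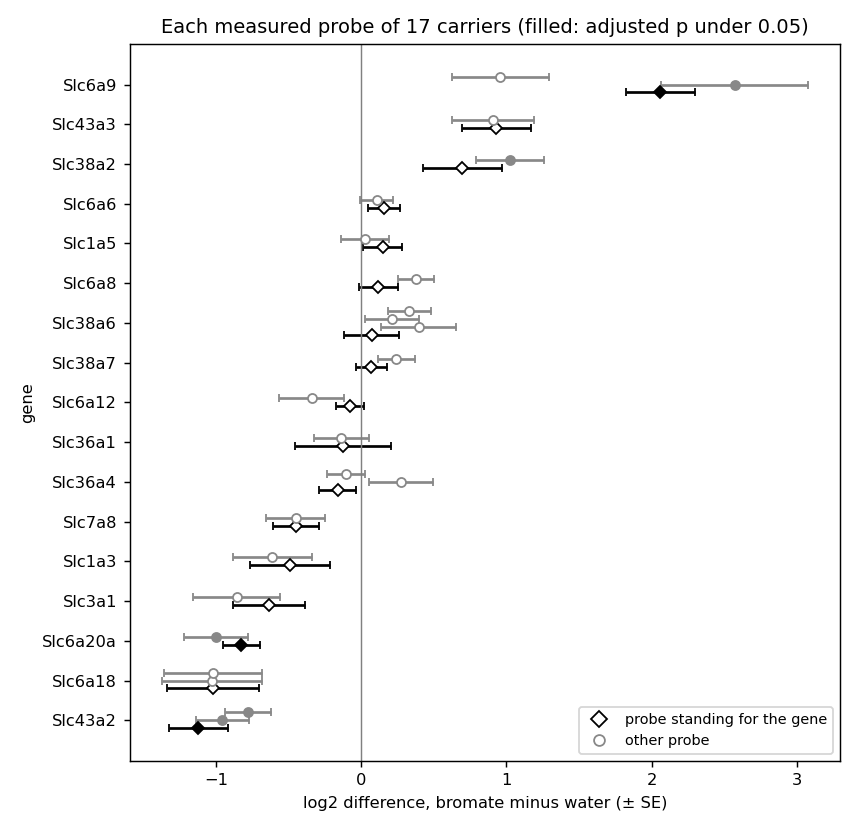
Log2 difference, bromate minus water, ± SE for each measured probe of the 17 carrier genes with more than 1 such probe, each tested for itself by limma and filled where adjusted p was under 0.05. Other probes had the sign of the probe standing for the gene in 22 of 23 cases, and the exception is 1 probe of Slc36a4.

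Probes of the same gene mostly went together. Besides the probes standing for the genes, 23 were measured in 17 genes, and 22 had the same sign. Of the 23, 5 passed the test, 2 of Slc43a2 and 1 each of Slc6a20a, Slc38a2 and Slc6a9, the last being the probe detected on bromate arrays only. All probes were read on the same arrays, so their signs are a description. The exception in sign was a probe of Slc36a4, at 0.27 ± 0.22 (adjusted p = 0.424).

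The median SD of a carrier was 0.208 under water and 0.164 under bromate, against 0.148 and 0.139 over all genes tested. The range over the water rats exceeded 1 for 4 of 28 carriers (14.3%, beside 7.82% of all genes), Slc38a3, Slc6a18, Slc36a1 and Slc38a1, the last well above background on 1 water array only. These are descriptions, with no test. Slc38a3, Slc6a18, Slc36a1, Slc3a1 and Slc1a1 ranked the water rats as the straight tubule list did, with replicate 1 highest and replicate 3 lowest. These 5 of 28 make 17.9%, and 18.2% of all genes tested had that order. The opposite order was seen in 8 of 28 (28.6%, beside 21.7% of all genes), among them Slc7a7, Slc7a8 and Slc43a2. An order of 3 rats is a description, and whether the amount of straight tubule in a sample moves these levels was not tested.

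**Figure D4:**
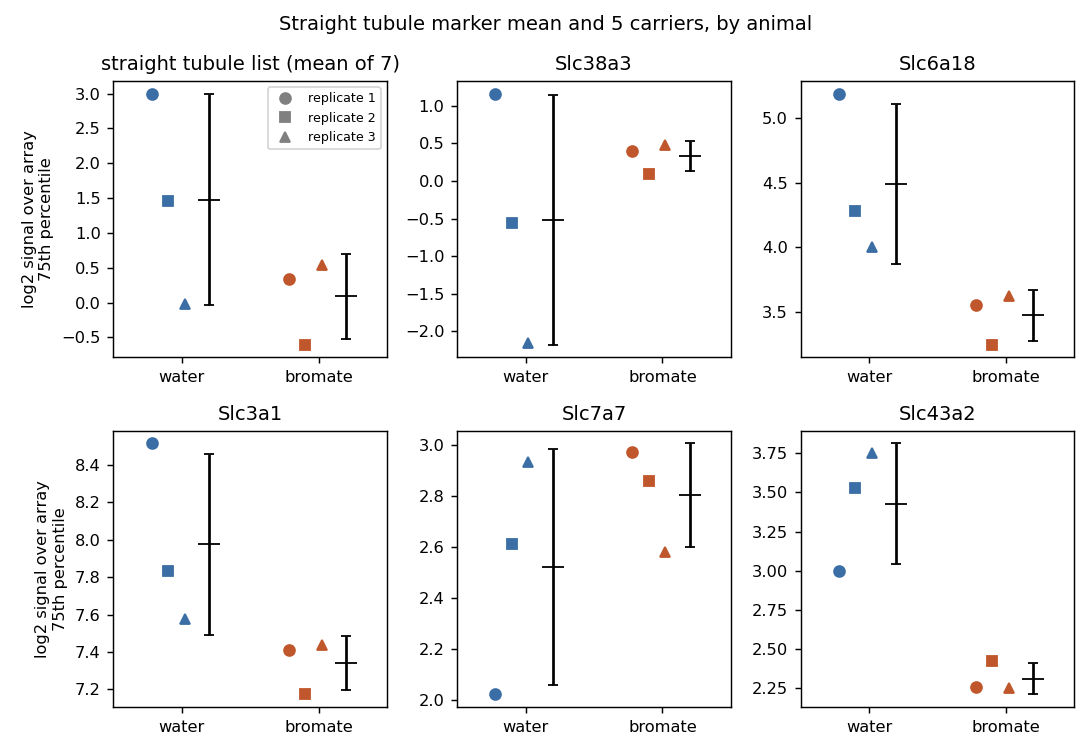
Mean log2 signal over the array's 75th percentile of the 7 straight tubule markers and the log2 signal of 5 carrier genes, with 1 point per rat (circle, square and triangle for replicates 1, 2 and 3) and the group mean ± SD (n = 3). Slc38a3, Slc6a18 and Slc3a1 rank the water rats like the marker list, and Slc7a7 and Slc43a2 rank them the other way. Axes differ between panels.

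Beyond these 36 genes, 38 other carriers and partner proteins of amino acid transport were listed, and 22 were measured. Of these 1 rose, 1 fell and 20 did not pass, where 14.5% of all genes tested were called in either direction. Slc6a17, a vesicular carrier of neutral amino acids best known from neurons, fell from -0.70, -0.41 and -0.28 to -2.11, -1.94 and -2.31, without overlap (3.16-fold lower, -1.66 ± 0.15, limma adjusted p = 0.00369). The call held whichever rat was omitted (adjusted p up to 0.0246).

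Slc25a22, which encodes a mitochondrial glutamate carrier, rose from 1.02, 1.25 and 1.45 to 2.44, 1.86 and 1.88 (1.77-fold, 0.82 ± 0.20, adjusted p = 0.0457). Its call ended with any 1 rat omitted (adjusted p 0.0688 to 0.123) and without the filter on dim probes (0.106).

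Slc7a13, a cystine and acidic amino acid carrier gene that is also one of the straight tubule markers, read 7.61, 4.83 and 2.54 under water and 1.72, -0.61 and 2.01 under bromate. The groups did not overlap, but the water rats were far apart, and the difference did not pass (-3.96 ± 1.38, adjusted p = 0.109). Slc7a5, the LAT1 gene, did not meet the filter on dim probes.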

How the data were processed

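Per the submitters' processing notes, Agilent Feature Extraction 10.7 was used. The deposited scanner files give for each spot a processed signal, an intensity on a linear scale. The deposited value table holds a ratio: each column equalled the processed signal over its array's 75th percentile to within 0.415% for values above 0.05, linear and not centred, with column medians of 0.1043, 0.1049, 0.1031, 0.1025, 0.1055 and 0.1026. The software behind it is not given in the sources.

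Here the processed signals were put on the log2 scale and the log2 of the array's 75th percentile over 61537 non-control probes was subtracted. Spots with outlier flags (0 to 4 per array) were left out. Probes took symbols by accession from RefSeq's gene table (GRCr8): 28206 (45.8%) had 1 symbol, 0 had several and 33331 had none. The probe with the highest mean stood for a symbol or accession, if well above background on 3 or more arrays. Bromate and water were compared with limma 3.58.1 in R 4.3.3 on all 6 arrays, with Benjamini-Hochberg adjustment. The code was tested on simulated data. The number of arrays limits the precision.

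Per the series' design text the replicates are biological. The alternatives were other scalings, normexp (offset 50), the value table, other filters, probe choices and variance models, slide or replicate number as a block, and each array left out. Every carrier could be named. All 6 values were due for carriers that passed, Slc6a19, Slc3a1, Slc7a9, Slc7a7, Slc7a8 and the 3 largest differences that did not pass, and those of further carriers were added. From the other lists came the genes that passed and Cltrn, Slc3a2, Slc7a5 and Slc7a13. The carriers, lists and markers were chosen with earlier results of these data known.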

Additional observations from a re-analysis of the deposited data

How the results depend on the processing

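Quantile scaling, a 75th percentile taken only over probes that every array detected, the authors' value table and averaged probes each gave 2 carriers higher and 4 lower, as reported. Without the filter on dim probes, 750 of all genes were higher and 694 lower, and more genes are then tested. Carriers higher and lower came to 2 each, and other carriers and partners higher to 0. Of the carriers called with the filter, only Slc6a9 (higher) and Slc6a20a (lower) kept their calls. The other 1 in each direction was a gene that had not met the filter. With normexp, 3 carriers were higher and 3 lower, and other carriers and partners 2 and 3. With an intensity trend and robust variance, 3 carriers were higher and 4 lower, and other carriers and partners 2 and 2. Asking for signal well above background on all 6 arrays gave 3 carriers higher and 3 lower: Slc43a3 was gained, as in both fits before, and Slc43a1 was not tested. Of all genes 1978 were then higher and 2193 lower. With slide as a block, 1 carrier was higher, and other carriers and partners were 0 higher and 2 lower.

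Same-numbered rats were little alike: their deviations from the group means correlated at 0.051, 0.07 and -0.095. Whether the numbers stand for a pairing in handling cannot be told from these values. With replicate number as a block, 585 of all genes were higher and 535 lower, carriers lower were 0, and other carriers and partners were 0 higher and 2 lower.

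With each rat omitted in turn, genes higher numbered 594 (without water replicate 2) to 1495 (without water replicate 1) and genes lower 530 to 1835, again without those rats. Carriers higher were 1 to 2 and lower 0 to 3, not always the carriers called with all rats. Other carriers and partners higher were 0 throughout and lower 1 to 2.

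Among carriers that did not pass, the difference of Slc36a1 was 0.10 with normexp, 0.081 with slide as a block, and -0.47 to 0.081 with a rat omitted. That of Slc36a4 was 0.0033 as the mean of its probes and 0.27 at 1 other probe. That of Slc38a6 was -0.12 with slide as a block and -0.12 to 0.19 with a rat omitted. The causes of these shifts were not tested. Signal over background limits Slc43a1 and Slc38a1, which were not well above background on 3 and 2 arrays.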
